A study of Mus musculus with 19 samples.

Results

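Axon guidance ligands and receptors were followed in medulloblastoma allografts with and without treatment by a Smoothened antagonist. The genes were chosen by symbol, as semaphorins of the classes Sema3 to Sema7, plexins, neuropilins, Eph receptors, ephrins, netrins, Slits, Robos, and the Unc5 and Dcc receptors. The rule matched 153 probe sets of 70 genes, out of 34945 probe sets and 18193 genes with a single symbol on the array. By spelling it also matched Unc5cl, a death domain protein related to the Unc5 receptors, and Plxna4os1, an antisense transcript. Of the 70 genes, 59 passed the filter on low signals and were tested. The 11 that did not pass were Epha1, Epha10, Epha6, Ephb4, Ntn3, Ntn5, Plxna4os1, Sema6b, Slit3, Unc5a and Unc5d, whose highest signals on any array lay between 10.5 and 29.3.

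Each of 19 tumours was measured on 1 Affymetrix array. All tumours carried the genotype Ptch+/-p53-/-. Ptch is the receptor that restrains the Hedgehog signal transducer Smoothened. Cells dissociated from tumours of such mice had been placed under the skin of nude mice, which lack mature T cells, so the graft also holds host vessels and stroma and lies outside the cerebellum. There were 3 tumours from vehicle-treated mice, labelled sensitive, 8 from mice given NVP-LDE225 at 40 mg/kg and 8 from mice given 160 mg/kg, all labelled resistant. NVP-LDE225 is a Smoothened antagonist. No treated tumour is labelled sensitive, so drug exposure and resistance cannot be told apart. Each tumour was counted as 1 sample. As the labels do not state separate animals, the p-values speak to the spread among these 19 samples, which may be technical. Values are signals on a linear scale, and fold changes are on the log2(signal + 2.5) scale, which understates changes of dim genes. A gene was called at a Benjamini-Hochberg adjusted p under 0.05 in limma, adjusted over all probe sets tested.

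Axon guidance proteins steer growing neurites and migrating neurons. Ephrins on one cell bind Eph receptor tyrosine kinases on the next, semaphorins bind plexins with or without neuropilin coreceptors, Slits bind Robos, and netrins bind Dcc and the Unc5 receptors. In the developing cerebellum such cues guide granule neuron precursors, the lineage from which Hedgehog-driven medulloblastoma arises, and several of the receptors also act on cell adhesion and survival.

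Of the 59 tested genes, 4 rose in the resistant tumours and 0 fell, with both doses averaged against vehicle. Beside this count stood a background of 5.32% of 13454 genes called in either direction, 2.86% higher and 2.46% lower. The genes that rose were Ephb1, a receptor for ephrin-B ligands, Sema4f, a membrane-bound semaphorin, Slit1, a secreted ligand of the Robo receptors, and Plxnb2, a receptor for membrane-bound semaphorins. With array weights, 15 members were called higher and 4 lower, beside 13.2% and 17.5% of all genes. Vehicle tumour 1 then had a weight of 5.464, beside 0.984 and 0.581 for vehicle tumours 2 and 3. The weighted vehicle mean thus rested mostly on vehicle tumour 1. An unadjusted p under 0.05 was reached by 13 members, while 23.4% of all genes tested did so. The log2 difference was positive for 34 members and negative for 25, with a median of 0.11. Among all genes 42.5% were positive and the median was -0.058. With 40 mg/kg against vehicle 2 members were called, Ephb1 and Slit1, both higher, beside 2.56% of all genes called (1.71% higher, 0.847% lower), and 12 had an unadjusted p under 0.05, beside 21.0%. With 160 mg/kg 2 were called, Ephb1 and Sema4f, both higher, beside 4.91% (2.46% higher, 2.45% lower), and 14 had an unadjusted p under 0.05, beside 22.3%. The dose comparisons share the 3 vehicle tumours. Between 160 and 40 mg/kg limma called 0 members and 0% of all genes, and 8 members had an unadjusted p under 0.05, beside 7.42%.

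**Figure D1:**
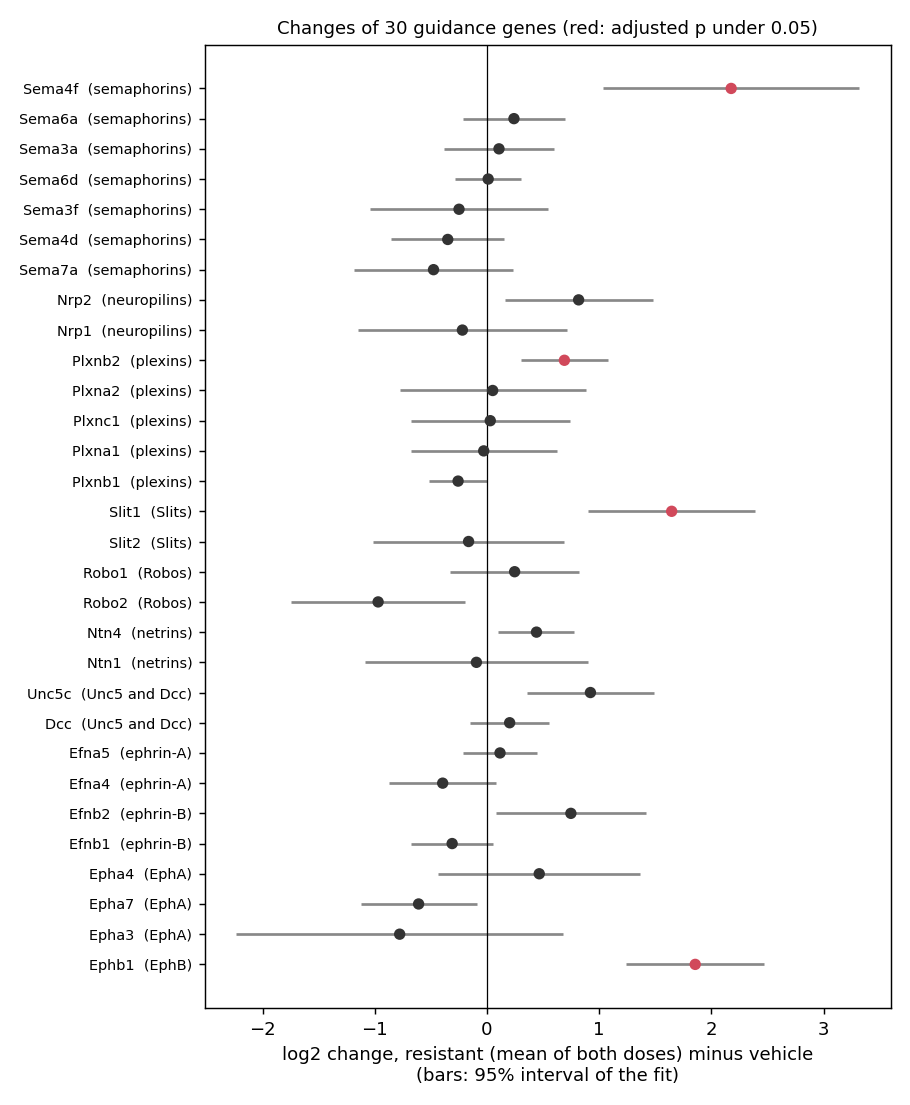
Log2 difference between resistant tumours (mean of both doses) and vehicle tumours for 30 guidance genes, ordered by family, with 95% intervals of the limma fit. The intervals of the called genes Sema4f, Plxnb2, Slit1 and Ephb1, in red, lie above 0, and the widest interval is that of Epha3.

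Promoter sequences of Ephb1 and Sema4f, which were higher in each of the 16 treated tumours than in every vehicle tumour, are shown with the letters of the CCAAT box. They are RefSeq promoters on GRCm38.p6, from 250 bases before to 50 bases after the gene start, both on the minus strand, at chr9:102354644-102354943 for Ephb1 and chr6:82939720-82940019 for Sema4f. Capitals mark ATTGG, the reverse complement of CCAAT. The CCAAT search was added after the sequences had been seen. Slit1, also higher in each treated tumour than in every vehicle tumour, had no listed promoter.
Ephb1: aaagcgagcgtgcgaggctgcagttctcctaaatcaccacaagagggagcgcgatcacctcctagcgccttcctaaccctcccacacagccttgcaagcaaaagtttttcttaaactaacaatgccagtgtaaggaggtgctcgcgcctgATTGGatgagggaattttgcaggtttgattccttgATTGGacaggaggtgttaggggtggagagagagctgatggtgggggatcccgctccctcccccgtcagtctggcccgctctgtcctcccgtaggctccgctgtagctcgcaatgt
Sema4f: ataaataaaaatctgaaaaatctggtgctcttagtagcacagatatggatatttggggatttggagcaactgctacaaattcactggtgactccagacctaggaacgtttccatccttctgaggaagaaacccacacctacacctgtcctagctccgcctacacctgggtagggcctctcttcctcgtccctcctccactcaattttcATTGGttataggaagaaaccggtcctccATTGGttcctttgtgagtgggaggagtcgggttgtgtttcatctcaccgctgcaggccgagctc
In the Ephb1 promoter the matches begin at positions -100 and -65 relative to the start, and in the Sema4f promoter at -42 and -14. CCAAT or ATTGG was found in 37.41% of 32851 RefSeq promoters of this length, and 11.7% held at least 2 matches. Counted by gene, it was found in 19 of 59 members with a listed promoter, or 32.2%, beside 41.06% of all genes. The GC content was 55.7% for Ephb1 and 48.7% for Sema4f, beside a median of 52.7% over all promoters. Plxnb2 has a pair of listed promoters, with GC contents of 70.3% and 61.7% and 0 matches. Of the member genes, 59 had a listed promoter, a set that differs from the 59 tested. The Gli consensus GACCACCCA, searched on both strands, was found in 0 of them, and in 0.29% of all genes with a promoter. The E-box CAGATG was found in 5 of the 59, or 8.47%, beside 19.23% of all genes. The E-box CAGCTG was found in 12, or 20.34%, beside 18.29%. Such a match is a run of letters and does not show binding.

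The Eph receptors and their ephrin ligands signal at contacts between cells. Among the 5 ephrin-A genes tested, 1 log2 difference was positive and 4 were negative, and none was called. Efna4 was lower than every vehicle tumour in 12 treated tumours, with 116 ± 9.44 (SD, n = 3) in vehicle, 92.3 ± 27.0 (n = 8) at 40 mg/kg and 88.8 ± 26.9 (n = 8) at 160 mg/kg. Its log2 difference of -0.39 did not pass (limma adjusted p = 0.325). Efna5, the ephrin-A gene with the highest mean signal, differed by 0.12 (adjusted p = 0.693). Efna2 was lower at 40 than at 160 mg/kg before adjustment, with a dose difference of 1.06 (95% interval 0.27 to 1.85). Its other, dimmer kept probe set had the opposite sign, at -0.15 (95% interval -0.55 to 0.25). Efna2 was singled out after its values were seen, and no dose difference passed adjustment.

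Of the ephrin-B genes, Efnb2 lay above all vehicle tumours in 14 of the treated tumours. Its vehicle signals were 45.1, 42.1 and 55.0. The lowest, median and highest signals were 56.7, 75.4 and 126 at 40 mg/kg, and 38.4, 98.5 and 163.9 at 160 mg/kg. The groups overlapped at 160 mg/kg only. The log2 difference of 0.75 (SE 0.32) did not pass (limma adjusted p = 0.180). Efnb1, a ligand of EphB receptors like Efnb2, differed by -0.31 (adjusted p = 0.308).

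Ephb1 (probe set 1455188_at) was the member with the smallest p. Its vehicle signals were 38.9, 22.4 and 44.4. Tumours given 40 mg/kg ran from 65.2 over a median of 134.1 to 193.8, and those given 160 mg/kg from 73.6 over 141.3 to 228.8. The lowest treated tumour was thus above the highest vehicle tumour, at both doses. The rise was 3.62-fold, or 1.86 on the log2 scale (SE 0.30, limma adjusted p = 0.00157). It was 1.84 at 40 mg/kg (adjusted p = 0.00572) and 1.87 at 160 mg/kg (adjusted p = 0.00274), and the doses differed by 0.03 (95% interval -0.46 to 0.52). The averaged rise stayed called when any 1 of the 19 arrays was left out, whereas at 40 mg/kg alone neither Ephb1 nor any other member was called without vehicle tumour 2. The other EphB genes tested were not called. Ephb3 differed by 0.42 (adjusted p = 0.478), and Ephb6, whose kinase is inactive, by -0.89 (adjusted p = 0.304).

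**Figure D2:**
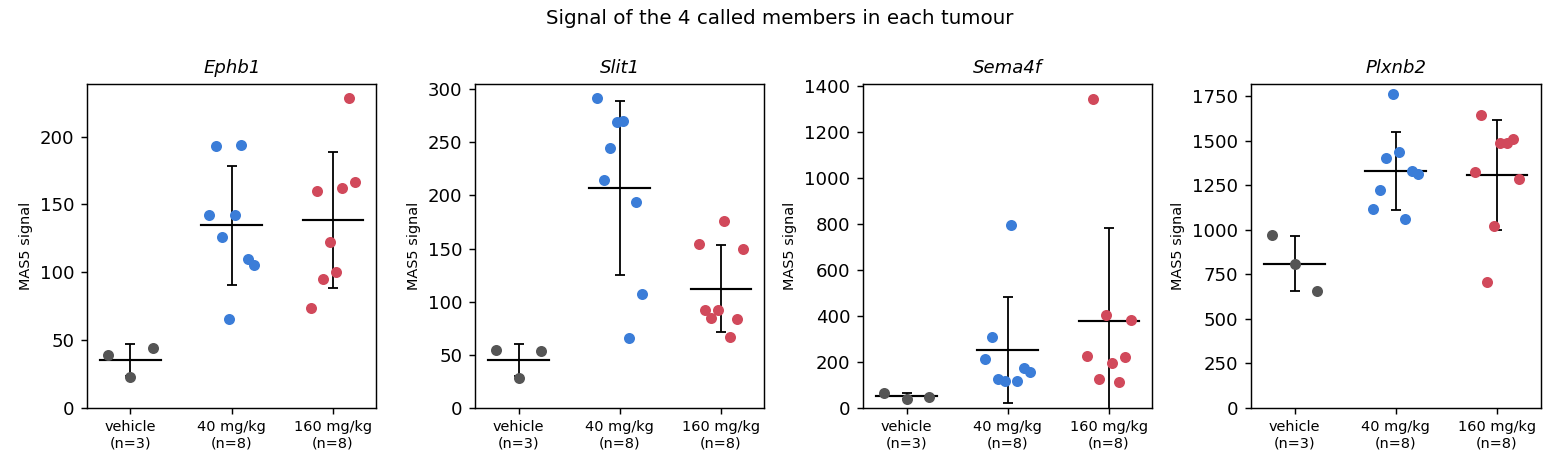
Signals of Ephb1, Slit1, Sema4f and Plxnb2 in each tumour by group, with bars for the mean and SD (the bar of Sema4f is cut at 0). For Ephb1, Slit1 and Sema4f every treated tumour lies above the vehicle tumours, and for Plxnb2 15 of the 16 do.

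None of the 6 EphA genes tested was called, and 4 of the 6 log2 differences were negative, with a median of -0.58. Epha3, the EphA gene with the highest mean signal, had vehicle signals of 719.5, 793.8 and 795.3. It ran from 383.4 over a median of 460.9 to 1451 under 40 mg/kg, and from 19 over 503.8 to 1122 under 160 mg/kg. Most treated tumours were below the vehicle range and 3 were above it. The log2 difference was -0.78 (SE 0.70, limma adjusted p = 0.536), and without 160 mg/kg tumour 2 it was -0.49. Epha7 had 119 ± 10.9 in vehicle (SD, n = 3), 76.3 ± 27.5 at 40 mg/kg (n = 8) and 85.1 ± 22.6 at 160 mg/kg (n = 8), and was below all vehicle tumours in 13 treated tumours. Its log2 difference was -0.61 (adjusted p = 0.160). Epha4 differed by 0.47 (adjusted p = 0.549) at dim signals, and the mean over its probe sets gave -0.03.

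Semaphorins made up the largest family, with 19 genes tested, of which 14 had a positive log2 difference and 1 was called. Sema4f (probe set 1439768_x_at) signals were 65.1, 39.1 and 47.6 in vehicle tumours. With 40 mg/kg the lowest, median and highest were 114.5, 164.4 and 798, and with 160 mg/kg they were 114.4, 224.8 and 1344. All treated tumours were above the vehicle tumours. The highest were 40 mg/kg tumour 5 and 160 mg/kg tumour 2. The rise was 4.52-fold, or 2.18 on the log2 scale (SE 0.55, limma adjusted p = 0.0284). It was 1.95 at 40 mg/kg (adjusted p = 0.0833) and 2.40 at 160 mg/kg (adjusted p = 0.0262). The call was lost without vehicle tumour 1, 2 or 3, at limma adjusted p of 0.0809, 0.114 and 0.150, and so was the call at 160 mg/kg. The probe set is of a type that can cross-hybridize, and the other kept probe set of Sema4f gave 1.51 (adjusted p = 0.120).

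The brightest semaphorin was Sema7a, a membrane-anchored semaphorin that signals through Plxnc1 and integrins. Vehicle signals were 1490, 1583 and 1466. Treated signals ran from 550.5 over a median of 1210 to 1826 at 40 mg/kg and from 297.5 over 1176 to 1892 at 160 mg/kg. In 14 treated tumours the signal was below all vehicle tumours and in 2 it was above. The log2 difference of -0.48 (SE 0.34) did not pass (limma adjusted p = 0.429), and it was -0.35 without 160 mg/kg tumour 2. Sema6d, a ligand of Plxna1, had the smallest unadjusted p between doses. It had 869 ± 22 in vehicle (SD, n = 3), 1010 ± 182 at 40 mg/kg (n = 8) and 780 ± 136 at 160 mg/kg (n = 8), a dose difference of -0.37 (95% interval -0.61 to -0.14, limma adjusted p = 0.644). Sema4d, the ligand of Plxnb1, differed from vehicle by -0.35 (adjusted p = 0.409), Sema3a by 0.11 (adjusted p = 0.823) and Sema6a by 0.24 (adjusted p = 0.541). Sema3f differed by -0.25 (adjusted p = 0.735), and its sign turned without vehicle tumour 3 and under array weights.

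Some semaphorins were dim in vehicle tumours, and these were singled out after their values were seen. Sema3d had a mean signal of 10.0 in vehicle, 56.8 at 40 mg/kg and 39.7 at 160 mg/kg, with a log2 difference of 1.71 (limma adjusted p = 0.201). Sema5a had 11.3, 43.1 and 52.1, with 1.51 (adjusted p = 0.321). Neither passed. A second probe set of Sema4a was called, at 1.95 (adjusted p = 0.00899), beside 4.47% of all probe sets, but its vehicle signals of 1.5, 2.2 and 5.5 lay near the pseudocount of 2.5. The brighter probe set that stands for Sema4a gave 0.34 (adjusted p = 0.543).

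Plexins are the main semaphorin receptors, and their intracellular part acts on Ras-family GTPases. Of 9 plexin genes tested 1 was called, with 5 positive and 4 negative log2 differences. Plxnb2 (probe set 1416683_at) signals were 968.5, 806.1 and 655.2 in vehicle tumours. The 40 mg/kg tumours had a lowest, median and highest signal of 1059, 1321 and 1764, and the 160 mg/kg tumours of 707.3, 1405 and 1642. Only 160 mg/kg tumour 3 lay within the vehicle range. The rise was 1.61-fold, or 0.69 on the log2 scale (SE 0.19, limma adjusted p = 0.0383), and it was 0.72 at 40 mg/kg (adjusted p = 0.0634) and 0.66 at 160 mg/kg (adjusted p = 0.0636). The call was lost without vehicle tumour 1, 2 or 3 (adjusted p = 0.0669, 0.109 and 0.273). It was also lost without 40 mg/kg tumour 3 or 7, or 160 mg/kg tumour 7 (adjusted p = 0.0503, 0.0519 and 0.0517). Plxnb1, the Sema4d receptor, was below all vehicle tumours in 13 treated tumours, but its log2 difference of -0.26 did not pass (adjusted p = 0.232).

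Plxnc1, the Sema7a receptor, had 542 ± 126 in vehicle (SD, n = 3), 717 ± 254 at 40 mg/kg (n = 8) and 494 ± 297 at 160 mg/kg (n = 8). Against vehicle it differed by 0.03 (limma adjusted p = 0.971), and between doses by -0.66 (95% interval -1.22 to -0.09) before adjustment. Plxna1 and Plxna2 differed from vehicle by -0.03 and 0.05. The neuropilins are the coreceptors for secreted semaphorins and for vascular growth factors. Nrp2 had 39.2 ± 13.0 in vehicle (n = 3), 68.1 ± 28.8 at 40 mg/kg (n = 8) and 78.6 ± 27.3 at 160 mg/kg (n = 8), with a log2 difference of 0.82 (adjusted p = 0.138). Nrp1 differed by -0.22 (adjusted p = 0.807), and its sign turned with the mean of its probe sets (0.21) and without vehicle tumour 3 (0.07).

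Slits were represented by Slit1 and Slit2, secreted repellents, and by the Robo receptors. Slit1 (probe set 1440056_at) signals were 54.4, 27.8 and 53.7 in vehicle tumours. Under 40 mg/kg the lowest, median and highest were 65.4, 229.8 and 292.1, and under 160 mg/kg they were 66.4, 91.8 and 176. Every treated tumour exceeded the vehicle tumours, and the 40 mg/kg median was above the highest 160 mg/kg tumour. The averaged rise was 3.13-fold, or 1.65 on the log2 scale (SE 0.36, limma adjusted p = 0.0125). It was 2.05 at 40 mg/kg (SE 0.38, adjusted p = 0.00901) and 1.24 at 160 mg/kg (adjusted p = 0.0715). The dose difference of -0.81 (95% interval -1.40 to -0.22) did not pass either (adjusted p = 0.674). The call at 40 mg/kg was lost without vehicle tumour 2, and the averaged call without vehicle tumour 2 (adjusted p = 0.0993) or 3 (adjusted p = 0.0587). Another, dimmer probe set of Slit1 gave 0.43 (adjusted p = 0.738), and the mean of both gave 1.04 (adjusted p = 0.216). Slit2 differed by -0.16 (adjusted p = 0.847).

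The Robos were not called in the unweighted fit without a replicate block. Array weights, with which 30.7% of all genes were called, called Robo2 and Robo3 for resistant tumours. The replicate block called Robo3 at 160 mg/kg. Robo2 had vehicle signals of 394.1, 481.5 and 562.2. The treated range was 107.9 to 463 with a median of 254.7 at 40 mg/kg, and 78.1 to 409.5 with a median of 290.3 at 160 mg/kg. None was above the vehicle range and 14 were below it. The log2 difference was -0.97 (SE 0.37, limma adjusted p = 0.135). Robo1 was above the vehicle tumours in 12 treated tumours and below them in 4, with a log2 difference of 0.25 (adjusted p = 0.627). Robo3, named after its values were seen, was dim in vehicle tumours at 9.73 ± 7.66 (SD, n = 3) and differed by 1.79 (adjusted p = 0.226).

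Netrin 1 attracts axons through Dcc and repels them through Unc5 receptors. Ntn1 signals were 349.3, 289.2 and 240.8 in vehicle tumours. They ran from 152.1 over a median of 283.8 to 397.4 at 40 mg/kg and from 38.9 over 299.6 to 563.1 at 160 mg/kg. The treated tumours lay on both sides of the vehicle range, and the log2 difference was -0.09 (limma adjusted p = 0.931). Ntn4 had 176 ± 29.0 in vehicle (SD, n = 3), 249 ± 34.6 at 40 mg/kg (n = 8) and 234 ± 54.8 at 160 mg/kg (n = 8), and its difference of 0.44 did not pass (adjusted p = 0.121).

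Of the netrin receptors, Dcc had 1504 ± 217 in vehicle (SD, n = 3), 1657 ± 290 at 40 mg/kg (n = 8) and 1851 ± 386 at 160 mg/kg (n = 8), with a difference of 0.20 (limma adjusted p = 0.504). Unc5c signals were 39.2, 32.2 and 61.3 in vehicle tumours. They ran from 59.5 over a median of 100.5 to 141.1 with 40 mg/kg, and from 46.4 over 76.5 to 131 with 160 mg/kg. In 12 treated tumours the signal was above the vehicle range and in none below. The log2 difference of 0.92 (SE 0.27) lay just outside the threshold (adjusted p = 0.0564), and the other kept probe set gave 1.62 (adjusted p = 0.0548). It passed under quantile normalization (adjusted p = 0.0256), with array medians subtracted (0.0357), a filter at the 60th percentile (0.0466), array weights (0.000354) and the mean of its probe sets (0.0467). It also passed without 40 mg/kg tumour 3, 160 mg/kg tumour 2 or 160 mg/kg tumour 5 (adjusted p = 0.0457, 0.0381 and 0.0440). Unc5c did not pass without vehicle tumour 1, 2 or 3, or without the 2 arrays least like the others.

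Counted tumour by tumour, 3 of the 59 genes (Ephb1, Sema4f and Slit1) were above all vehicle tumours in all 16 treated tumours, beside 2.00% of all genes. None was below in all 16, beside 2.53%. At least 12 treated tumours were above the vehicle range for 13 members, beside 12.3% of all genes, and below it for 7, beside 16.1%. Of 37 genes with more than 1 kept probe set, 23 had the same sign in each.

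**Figure D3:**
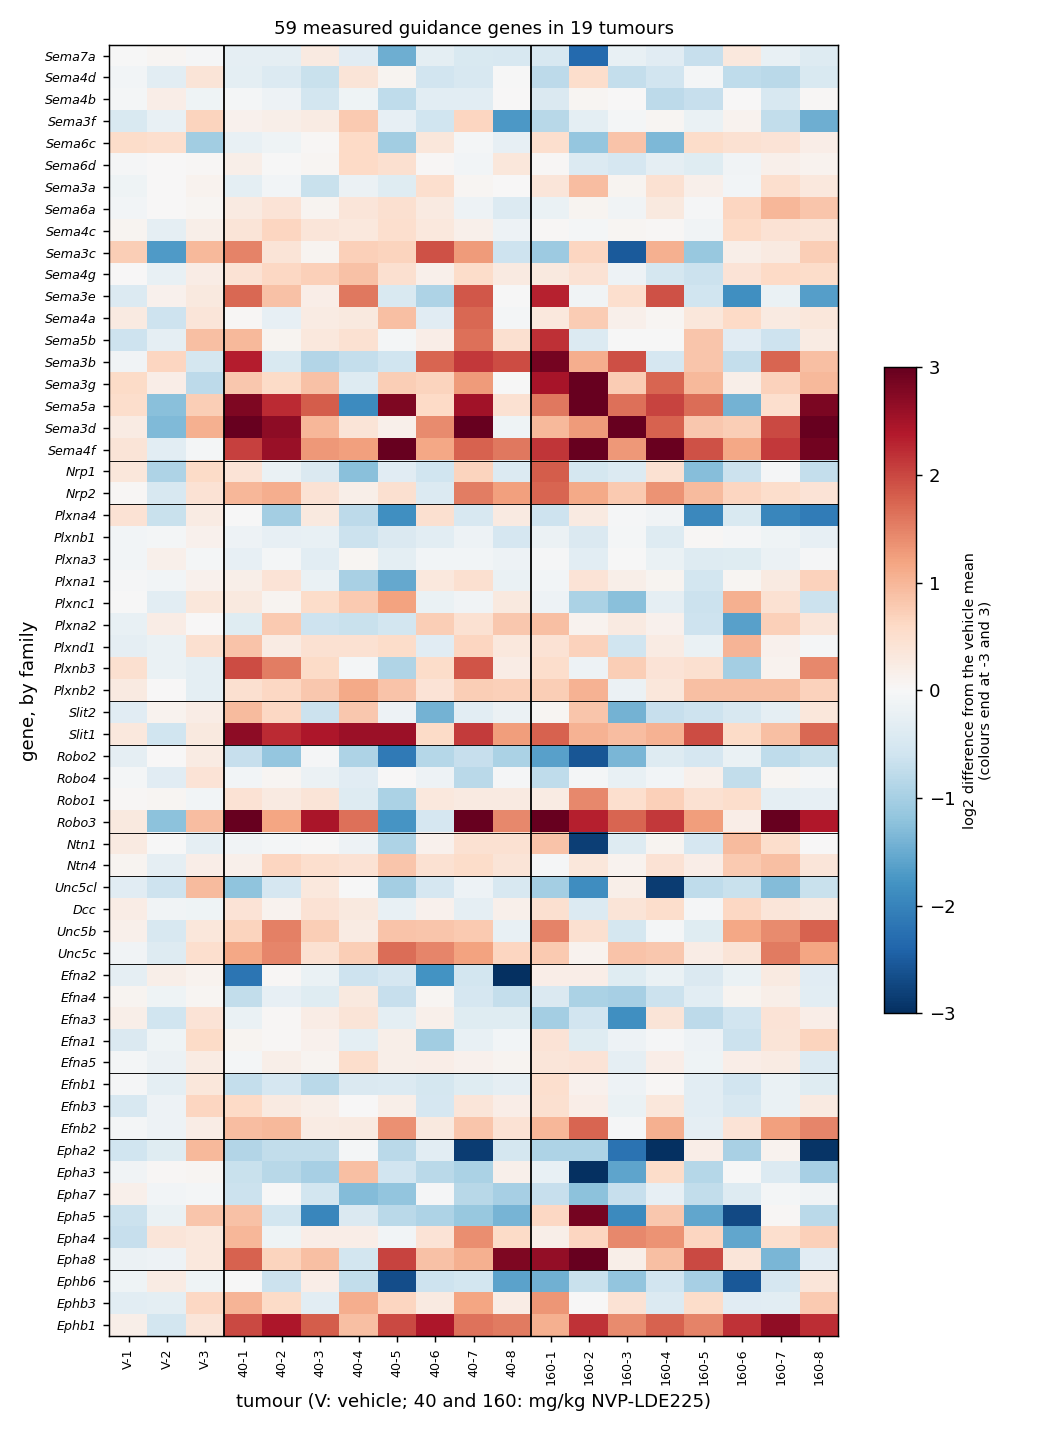
Log2 signal of the guidance genes in each of the 19 tumours, relative to the vehicle mean, with colours that end at -3 and 3. Ephb1, Sema4f and Slit1 are higher in every treated tumour, while many other genes vary in both directions among tumours of 1 dose.

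Members varied among tumours of the same dose. The median SD of log2 signal within a dose was 0.63 for the members and 0.31 for all genes, with signal level not matched. The largest SDs were those of Sema5a (1.59), Robo3 (1.55) and Epha5 (1.40), all dim, and Epha3 reached 1.34 at a high signal. These were ranked after their values were seen. Tumour 2 at 160 mg/kg had the lowest signals of its dose for Epha3, Ntn1, Sema7a, Robo2 and Dcc and the highest for Robo1 at 1179, Sema4f at 1344, Sema3g at 462.9 and Epha8 at 500.4. It was the highest or lowest tumour of its dose for 23 of the 59 members, or 39.0%, beside 39.3% of all genes. For 160 mg/kg tumour 6 the count was 25, or 42.4%, beside 29.3% of all genes. Of the 40 mg/kg tumours, number 5 was lowest for Ntn1, Sema7a, Robo2 and Robo1 and highest for Plxnc1 and Sema4f. It was highest or lowest for 19 members, or 32.2%, beside 33.3% of all genes.

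**Figure D4:**
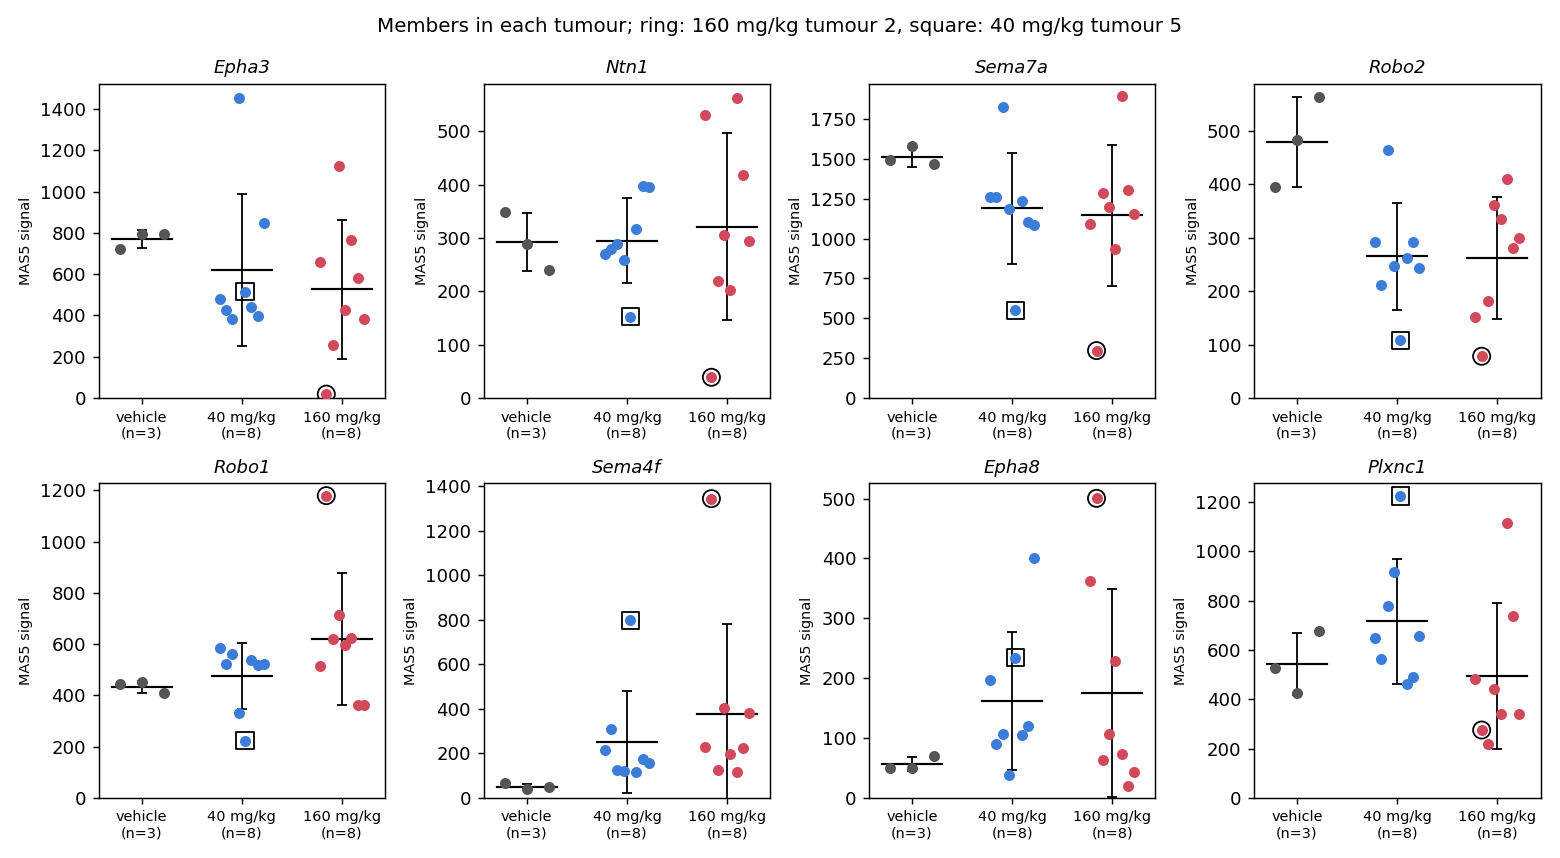
Signals of guidance genes for which single tumours lie far from the rest of their dose, by group, with mean and SD (bars end at 0), a ring around 160 mg/kg tumour 2 and a square around 40 mg/kg tumour 5. Tumour 2 at 160 mg/kg is the lowest for Epha3 (19), Ntn1 (38.9) and Sema7a (297.5), and 40 mg/kg tumour 5 is the lowest of its dose for Ntn1 (152.1) and Sema7a (550.5).

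Ligands and receptors that bind each other were compared across the 16 treated tumours of both doses on the log2(signal + 2.5) scale. Of 13 listed pairs 11 had both genes measured, and 2 passed for Pearson's r after adjustment over the 11, while 0 passed for Spearman's rho. Sema4d and its receptor Plxnb1 ran in opposite directions, with r = -0.655 (permutation p = 0.00606, adjusted 0.0333) and rho = -0.61 (permutation p = 0.0144, adjusted 0.158). Within 40 mg/kg r was -0.87 (exact permutation p = 0.00625, adjusted 0.0344) and within 160 mg/kg -0.44 (exact permutation p = 0.280). Each pair was tested only with the probe set that stands for each gene. In 40 mg/kg tumour 4, where Sema4d was highest of its dose at 280.2, Plxnb1 was lowest at 94.9. The other kept probe set of Plxnb1, similarly bright, had 140 in that tumour, within its range of 102.2 to 150.9 at that dose. The sign within 160 mg/kg turned without tumour 2 of that dose, to 0.21 (exact permutation p = 0.633), a setting chosen after seeing the data. Over both doses, leaving out that tumour gave -0.64 (permutation p = 0.0103, adjusted 0.114). Without the 2 tumours farthest from the Sema4d median r was -0.42 (permutation p = 0.134). Leaving out extreme ligand values narrows their range, so this cannot decide whether the relation rests on those tumours. Sema6d and Plxna1 did not pass over both doses (r = -0.52, permutation p = 0.0393, adjusted 0.144). Within 40 mg/kg they did, at r = -0.88 (exact permutation p = 0.00417, adjusted 0.0344), whereas r was 0.32 within 160 mg/kg (exact permutation p = 0.453). The Sema6d probe set used was highest of its dose in 40 mg/kg tumour 4, at 1313.6. In the next brightest Sema6d probe set that tumour had 124.2, and tumour 8 was highest, at 142.2. The pair was not tested with that probe set. Tests were two-sided.

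Ntn1 and Dcc ran in the same direction, with r = 0.66 (permutation p = 0.00359, adjusted 0.0333) and rho = 0.49 (permutation p = 0.0555, adjusted 0.305). Within 160 mg/kg r was 0.91 (exact permutation p = 0.00290, adjusted 0.0319) and within 40 mg/kg 0.10. Without the 2 tumours farthest from the Ntn1 median r was 0.33 (permutation p = 0.249). For the same reason, this cannot decide whether the relation rests on those tumours. Leaving out 160 mg/kg tumour 2 alone, a setting chosen after seeing the data, gave 0.46 over both doses (permutation p = 0.0879, adjusted 0.322). Within 160 mg/kg it gave 0.73 (exact permutation p = 0.0494, not adjusted).

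**Figure D5:**
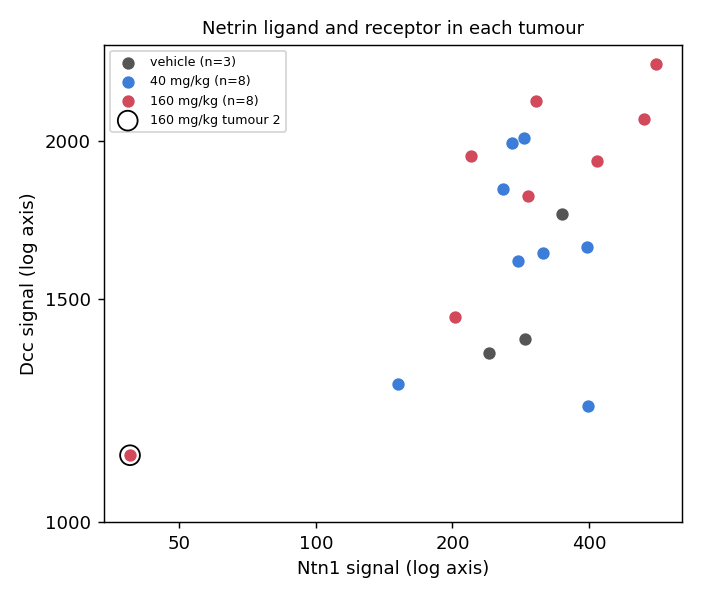
Signal of Dcc against that of Ntn1 in each of the 19 tumours, on log axes, coloured by group, with a ring around 160 mg/kg tumour 2. That tumour has the lowest signal of both genes, and r was 0.91 within 160 mg/kg and 0.10 within 40 mg/kg.

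Signalling proteins that act below the receptors were taken from a list of 42 genes, of which 40 were tested. Of these 3 rose and 1 fell against vehicle, beside 2.86% and 2.46% of all genes. The median log2 difference was 0.13, beside -0.058 for all genes. Crmp1, a mediator of semaphorin signalling to the cytoskeleton, rose from 590 ± 88.3 in vehicle (SD, n = 3) to 1258 ± 275 at 40 mg/kg (n = 8) and 1521 ± 479 at 160 mg/kg (n = 8), by 1.19 on the log2 scale (limma adjusted p = 0.00212). Fyn, a Src-family kinase used by Dcc and semaphorin receptors, rose by 0.64 (adjusted p = 0.0161) and Srgap3, a GTPase-activating protein linked to Slit and Robo, by 1.18 (adjusted p = 0.0348). Dock1, an activator of the GTPase Rac, fell by 0.75 (adjusted p = 0.0396). The rises were seen in all 16 treated tumours, as was the fall. The calls of Fyn, Srgap3 and Dock1 were lost without any 1 of the 3 vehicle tumours, with adjusted p up to 0.127, 0.218 and 0.150. That of Dock1 was also lost without 40 mg/kg tumour 1, 2, 3 or 7, or 160 mg/kg tumour 1 or 7. Srgap3 was lost as well without a variance trend (adjusted p = 0.0501) and with the mean of its probe sets, where the log2 difference was 0.52 (0.218). Dock1 was lost with array medians subtracted (0.0669), without a variance trend (0.0554) and with the mean of probe sets (0.0725).

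Other guidance and adhesion genes came from a list of 24, of which 23 were tested. Reln, Nrcam and Rtn4 rose and 0 fell, beside 2.86% and 2.46% of all genes, with a median log2 difference of 0.31. Reln, the secreted protein reelin that positions migrating neurons, rose 3.29-fold from 704 ± 162 in vehicle (SD, n = 3) to 2430 ± 866 at 40 mg/kg (n = 8) and 2387 ± 977 at 160 mg/kg (n = 8), by 1.72 on the log2 scale (limma adjusted p = 0.00114). Nrcam, an adhesion molecule of growing axons, rose by 1.39 (adjusted p = 0.00477) and Rtn4, the source of the neurite growth inhibitor Nogo, by 0.39 (adjusted p = 0.0254). The call of Rtn4 was lost without any 1 of the vehicle tumours (adjusted p up to 0.193), under quantile normalization (0.0764), without a variance trend (0.0581) and with the mean of its probe sets (0.158). Those of Reln and Nrcam were kept without any 1 of the 19 arrays, but with the mean of its probe sets Reln differed by 1.15 and missed the threshold (limma adjusted p = 0.0555).

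Markers of the cells a graft can hold were measured beside these genes. Their counts stand beside 2.86% of all genes called higher and 2.46% called lower. Of 11 neuron maturation markers tested 8 rose and 0 fell, with a median log2 difference of 1.06. Their summed signal lay between 3610 and 4806 in the vehicle group, and between 6110 and 12060 with 40 mg/kg and 6515 and 12776 with 160 mg/kg, so neither dose overlapped vehicle. Of 9 granule lineage markers 3 rose (Neurod1, Nhlh2 and Zic1) and 0 fell, with sums of 9364 to 9764, 12054 to 15461 and 10180 to 17499. Atoh1, Barhl1 and Meis1 had negative log2 differences that did not pass. They were -0.87 for Atoh1, below all vehicle tumours in 13 treated tumours, -0.59 for Barhl1 (below in 12) and -0.49 for Meis1 (below in 14). Pax6, Nhlh1 and Zic2 had positive differences of 0.40, 0.33 and 0.02, which did not pass either. Pax6 was above all vehicle tumours in 12 treated tumours and below them in 4. Atoh1 and Zic1, which mark the granule lineage, had mean vehicle signals of 1313 and 3448. Oligodendrocyte markers, of which 1 of 9 rose, had sums between 1414 and 1911 in the vehicle group, 831 and 11523 with 40 mg/kg, and 623 and 9699 with 160 mg/kg. Of 8 astrocyte markers 2 rose and 1 fell, with sums between 3886 and 4399, 2595 and 5942, and 1431 and 4794 in that order. None of the endothelial (11), fibroblast and pericyte (10), macrophage (10), muscle (7) or skin (3) markers tested was called. The skin sum lay between 5193 and 5929 in the vehicle group, 2259 and 5331 with 40 mg/kg, and 299 and 3410 with 160 mg/kg. It was almost wholly Krt10, with a mean of 5509 in vehicle tumours, while Krt5 had 36.6 and Lor 92.5, and Krt1 and Krt14 did not pass the filter. The endothelial sum lay between 655 and 972, 571 and 916, and 480 and 712 in the same order. The muscle sum, between 404 and 2637 in the vehicle group, lay between 122 and 14767 with 40 mg/kg and between 101 and 7614 with 160 mg/kg. Fibroblast and pericyte sums (3551 to 7583, 3522 to 7542 and 2485 to 9335) and macrophage sums (1067 to 1612, 770 to 2836 and 691 to 6075) overlapped between all groups. The part of these markers in the changes of Ephb1, Slit1, Sema4f and Plxnb2 was not tested. In bulk tumours fewer cells of a type and less RNA per cell cannot be told apart.

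Arrays had a median signal between 32.7 and 49.7 and pairwise correlations of log2 signal between 0.878 and 0.968. The highest median was that of vehicle tumour 3, beside 42.5 for 160 mg/kg tumour 8, the next array. The 40th percentiles of these arrays were 33.3 and 24.8. Vehicle tumour 3 and 160 mg/kg tumour 2 were least like the others, with mean correlations of 0.915 and 0.916. Without both, 1 of the 4 averaged calls was kept, that of Ephb1. The number of arrays, with 3 in the vehicle group, limits the precision.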

How the data were processed

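The authors deposited signal intensity values on a linear scale, made with MAS5 per the submitters' processing notes. MAS5 summarizes a probe set after background and mismatch subtraction and scales each array alone. The scaling target, detection calls and scan dates are not given in the sources used here, so no batch could be tested. The series text names the 430A 2.0 array, whereas the 45101 probe sets are named by the platform table of the full 430 2.0 array. Leaving aside 64 control probe sets, a single symbol was listed for 34945, several for 932 and none for 9160.

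The filter kept 31143 probe sets of 13454 genes, whose signal exceeded the 40th percentile of the array in 3 or more arrays. log2(signal + 2.5) was fitted with limma 3.58.1 in R 4.3.3 as 3 group means with a variance trend and 16 residual degrees of freedom, and p-values are two-sided. Each gene is read from its brightest kept probe set by mean signal. Pairs were tested with scipy 1.17.1, by 100000 permutations or exactly within a dose. The fit was tested on simulated data, in which the noise was normal, independent and equally spread on all arrays. The real arrays were less even, with array weights from 0.371 to 5.464, so the simulated shares may not hold for them. For resistant against vehicle the fit recovered 55% of probe sets given a log2 change of 1 and 86% of those given 2. Of the probe sets called there, 4.7% had been given no change. Promoters are RefSeq sequences of GRCm38.p6.

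The members and lists were chosen with earlier results of these data known. Named genes were all called members, the brightest gene and that of smallest p in each family, the listed ligand and receptor pairs, and up to 4 called genes per list and direction. Replicate numbers recur across groups, but deviations of 14 same-numbered pairs correlated between -0.128 and 0.09, and no block was used. Alternatives were other pseudocounts, filters and scalings, no trend, array weights, a replicate block, only the groups compared, the mean over probe sets, and leaving out arrays.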

Additional observations from a re-analysis of the deposited data

Results flagged for a closer look

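In 8 of 74 groups of 8 treated tumours, the most extreme tumour lay farther from its neighbour than the 95% critical value of Dixon's test. For a single group of normal values chance gives about 1 in 20. The groups reuse the same 16 tumours and are not independent, so the count cannot be judged against that share. At 160 mg/kg, tumour 2 was lowest for Epha3 at 19 (the next was 255.9), for Ntn1 at 38.9 (next 202.5) and for Sema7a at 297.5 (next 937.5). Tumour 6 at that dose was lowest for Epha4 at 5.6 (next 24.4). At 40 mg/kg, tumour 5 was lowest for Ntn1 at 152.1 (next 259.2) and for Sema7a at 550.5 (next 1086), and it was highest for Reln at 4495 (next 2495). Tumour 4 at 40 mg/kg was highest for Efna5 at 194.7 (next 153.1).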

How the results depend on the processing

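The 3 vehicle tumours limit every comparison with vehicle. Left out in turn, the arrays gave 1 to 5 called members for the averaged contrast, 0 to 4 for 40 mg/kg, 1 to 3 for 160 mg/kg and 0 between doses. Without vehicle tumour 1, 2 or 3 the resistant count was 2, 1 and 1, the 40 mg/kg count 2, 0 and 2, and the 160 mg/kg count 1, 1 and 1. Without 160 mg/kg tumour 2 it was 5 for resistant tumours and 4 at 40 mg/kg. Array weights, which ranged from 0.371 for 160 mg/kg tumour 2 to 5.464 for vehicle tumour 1, gave 19 members for resistant tumours (15 higher, 4 lower), 17 for 40 mg/kg (15 and 2) and 10 for 160 mg/kg (8 and 2). Of all genes 30.7%, 25.8% and 21.4% were called with these weights. Only the groups compared gave 5 at 40 mg/kg. The replicate block gave counts of 4 (resistant), 2 (40 mg/kg) and 4 (160 mg/kg), and lost Plxnb2 (adjusted p = 0.169), Srgap3 (0.0621) and Dock1 (0.0748). Without the 2 arrays least like the others 1 was called for resistant tumours and 1 at 160 mg/kg. Plxnb2 was also lost without a variance trend (adjusted p = 0.0597). Of the pairs, 0 passed without the 2 farthest tumours, 2 within 40 mg/kg, 1 within 160 mg/kg and 0 without 160 mg/kg tumour 2. The cause was not tested.

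Signs turned for 9 genes that were not called, from log2 differences between -0.25 and 0.47. Quantile normalization gave 0.0021 for Plxna1 and -0.0118 for Sema6d. Array weights gave 0.0802 for Plxna1, 0.089 for Sema3f and 0.0365 for Slit2. The replicate block gave 0.1078 for Nrp1, 0.1514 for Plxna1, -0.241 for Plxnc1, -0.1126 for Sema6d and 0.0677 for Slit2. Without the 2 least alike arrays Nrp1 was 0.0966, Plxna1 0.014 and Sema3f 0.0733. The mean of probe sets gave -0.0292 for Epha4, 0.2123 for Nrp1 and -0.2962 for Sema6d. Leaving out 1 array gave -0.226 to 0.0962 for Ntn1, -0.0657 to 0.1693 for Plxna2, -0.0172 to 0.0344 for Sema6d, -0.1341 to 0.2002 for Plxnc1, -0.676 to 0.0701 for Nrp1, -0.0769 to 0.0676 for Plxna1 and -0.4728 to 0.0835 for Sema3f.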
